A study of Mus musculus with 82 samples.

Results

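Integrins are cell surface receptors, each an alpha subunit paired with a beta subunit, and laminins are basement membrane proteins built from an alpha, a beta and a gamma chain. The set described here holds 35 genes by symbol, 25 of them integrin subunits and 10 laminin chains, of 21887 protein-coding genes in the RefSeq annotation of GRCm38. For each gene, accessible regions were counted in peak lists from ATAC-seq, which maps open chromatin through the insertion of sequencing adapters by a transposase. A peak was assigned to a gene when its centre lay within 100 kb of an end of that gene and no other coding gene had a closer end. A gene-end peak is a peak that overlaps the 1 kb on either side of an annotated gene end.

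The cells were mouse embryonic fibroblasts, named OG2-MEFs in the protocols and infected at passage 2 with retroviral Oct4, Sox2, Klf4 and c-Myc (OSKM) to reprogram them toward pluripotency. All groups carry OSKM. Cells that also overexpressed RNase H1(D209N), called D209N here, were sampled at day 7 and day 3, and cells that overexpressed Flag instead were sampled on the same days. RNase H1 cuts the RNA strand of RNA:DNA hybrids, and D209N is a substitution in its catalytic site. The labels give 2 replicates in each of the 4 groups, but there is 1 peak list per group, so no difference below has a replicate error or a test. Retroviral delivery can leave a mixed population, and the lists come from bulk nuclei, so a change in the share of cells and a change within cells cannot be told apart.

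The lists held 40452 peaks for D209N and 42439 for Flag at day 7, and 29189 for D209N and 36375 for Flag at day 3. Median widths lay between 464 and 489 bp. Intervals under 100 bp made up 0.915% to 1.43% of a list, down to 1 bp. Read depth is unknown, and the absence of a peak from a list is no measure of closed chromatin. Of 10 fibroblast marker genes, 6 had a gene-end peak in D209N and 7 in Flag at day 7, and 5 in D209N and 6 in Flag at day 3. Thy1, Pdgfra and Prrx1 had none in any list, although each had assigned peaks in all 4. Among 7 pluripotency markers 3 had a gene-end peak in D209N and 2 in Flag at day 7, and 2 in D209N and 3 in Flag at day 3.

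Integrins anchor cells to the matrix outside and to actin or keratin filaments inside, and the alpha chain sets much of what is bound. In connective tissue, fibroblasts attach mainly to collagen and fibronectin. Epithelial and pluripotent cells lie or are grown on laminin, which they bind through Itga6, the laminin receptor chain, with Itgb1 or Itgb4. Reprogramming of fibroblasts passes through a shift toward epithelial character, in which these contacts are known to be rebuilt.

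Promoter sequences of RefSeq (GRCm38.p6) could be matched for 23 of the 35 genes. Those shown are the 5 whose peak within 1 kb of the promoter start differed between lists, and Itga1, where it was in all 4. Each line gives the 250 bases before the start, 5′ to 3′ on the strand of the gene. Capitals mark the motifs GGGCGG, bound by SP and KLF factors, and GGAATG, bound by TEAD factors, on either strand. The Itga10 window is chr3:96645334-96645583 on the plus strand, that of Itga11 is chr9:62677605-62677854 (plus) and that of Lamb1 chr12:31265043-31265292 (plus). The windows on the minus strand are chr10:27616943-27617192 for Lama2, chr2:180225860-180226109 for Lama5 and chr13:115101965-115102214 for Itga1.
Itga10: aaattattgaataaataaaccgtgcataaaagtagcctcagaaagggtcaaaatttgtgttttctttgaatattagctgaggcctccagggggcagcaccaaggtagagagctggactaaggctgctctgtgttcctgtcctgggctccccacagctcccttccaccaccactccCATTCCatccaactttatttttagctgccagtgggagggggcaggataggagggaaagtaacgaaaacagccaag
Itga11: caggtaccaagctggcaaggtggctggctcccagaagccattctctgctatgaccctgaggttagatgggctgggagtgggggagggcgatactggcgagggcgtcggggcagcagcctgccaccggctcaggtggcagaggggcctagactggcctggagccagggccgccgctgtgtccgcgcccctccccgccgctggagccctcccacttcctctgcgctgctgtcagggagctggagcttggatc
Lama2: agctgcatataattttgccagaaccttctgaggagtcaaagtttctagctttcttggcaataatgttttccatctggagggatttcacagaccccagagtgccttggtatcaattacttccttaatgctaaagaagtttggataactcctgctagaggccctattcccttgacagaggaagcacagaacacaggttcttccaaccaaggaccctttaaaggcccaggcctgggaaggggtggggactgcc
Lama5: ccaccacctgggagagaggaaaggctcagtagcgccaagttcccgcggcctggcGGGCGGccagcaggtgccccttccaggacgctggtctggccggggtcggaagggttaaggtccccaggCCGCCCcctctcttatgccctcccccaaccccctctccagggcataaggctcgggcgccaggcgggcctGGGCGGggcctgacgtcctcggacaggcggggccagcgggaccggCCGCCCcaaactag
Lamb1: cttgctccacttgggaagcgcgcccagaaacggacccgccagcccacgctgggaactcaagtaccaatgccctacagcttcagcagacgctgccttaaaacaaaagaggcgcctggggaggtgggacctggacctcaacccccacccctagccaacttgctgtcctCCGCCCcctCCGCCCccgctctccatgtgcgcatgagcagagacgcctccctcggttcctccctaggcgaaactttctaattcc
Itga1: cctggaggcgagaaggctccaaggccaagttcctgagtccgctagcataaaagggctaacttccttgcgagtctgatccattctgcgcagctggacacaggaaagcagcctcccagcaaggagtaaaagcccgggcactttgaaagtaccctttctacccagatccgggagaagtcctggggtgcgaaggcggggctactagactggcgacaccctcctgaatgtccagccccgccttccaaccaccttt
GGGCGG stood 4 times before Lama5, beginning 196, 128, 59 and 14 bases before the start, and 2 times before Lamb1, at 84 and 75 bases. GGAATG stood once before Itga10, at 75 bases. The windows of Itga11, Lama2 and Itga1 held none of the 8 motifs searched.

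Gene-end peaks were present at 25 of the 35 genes in D209N and 24 in Flag at day 7, and at 20 in D209N and 22 in Flag at day 3. As shares these were 71.4% in D209N (Wilson 95% interval 54.9 to 83.7) and 68.6% in Flag (52.0 to 81.4) at day 7, and 57.1% in D209N (40.9 to 72.0) and 62.9% in Flag (46.3 to 76.8) at day 3. Intervals cover counting error only. Over all coding genes the shares were 60.4% in D209N and 61.5% in Flag at day 7, and 51.7% in D209N and 55.9% in Flag at day 3, so the set lay above the background in each list, with each background share inside the interval. In all 4 lists a gene-end peak was found at 19 of the 35 genes (50.6% of coding genes), and in no list at 10 (37.0%). The remaining 6 genes, Itga11, Itgb4, Lama2, Lama5, Lamb1 and Lamc3, differed between lists.

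Assigned peaks summed to 111 in D209N and 112 in Flag at day 7, and to 72 in D209N and 85 in Flag at day 3. Per gene this is a mean of 3.17 in D209N and 3.2 in Flag at day 7, and of 2.06 in D209N and 2.43 in Flag at day 3. All coding genes had 1.66 in D209N and 1.75 in Flag at day 7, and 1.17 in D209N and 1.44 in Flag at day 3. The genes of the set are long, with a median of 62.5 kb against 17.2 kb over coding genes. Counted per 100 kb of gene, the set had 3.28 peaks in D209N and 3.31 in Flag at day 7, and 2.13 in D209N and 2.51 in Flag at day 3. The same measure over all coding genes was 3.46 in D209N and 3.65 in Flag at day 7, and 2.43 in D209N and 3.0 in Flag at day 3, so per length the set lay slightly below. Lamc1, Itga6, Lama4, Itgb1 and Itgb5 held 134 of the 380 assignments over the 4 lists, or 35.3%.

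**Figure D1:**
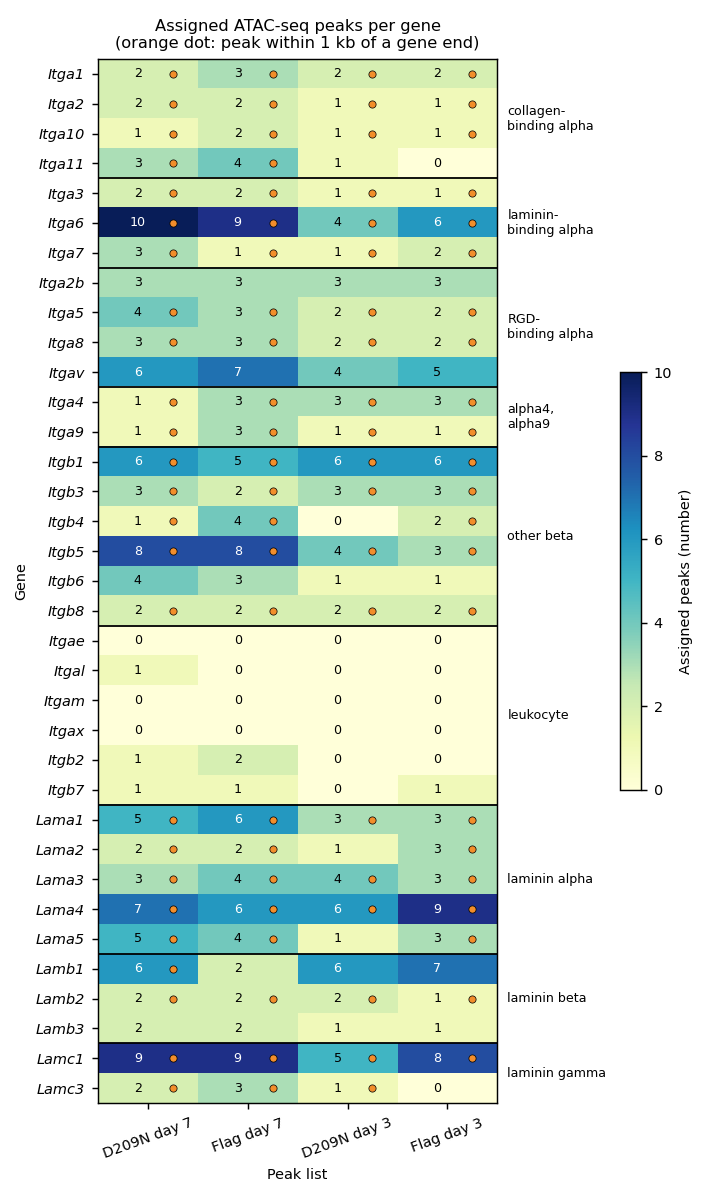
Number of assigned ATAC-seq peaks (colour and digit) for each of the 35 genes (rows, grouped by role) in each peak list (columns), with an orange dot where a peak lay within 1 kb of a gene end. Itga6 reaches 10 peaks in D209N at day 7, the leukocyte block has no dot, and 6 genes have dots in some lists only.

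The collagen-binding alpha chains Itga1, Itga2, Itga10 and Itga11 had gene-end peaks at 4 of 4 genes in both day 7 lists and at 3 in both day 3 lists. Itga11, the collagen receptor chain of fibroblasts and other mesenchymal cells (chromosome 9, 62677855 to 62783979), was the one that changed. At day 7 it had 3 assigned peaks in D209N and 4 in Flag, and at day 3 it had 1 in D209N and 0 in Flag. Within 1 kb of its annotated start it had a 148 bp peak in D209N at day 7, ending 18 bp before the start, and peaks of 288 and 234 bp in Flag, beginning 28 and 574 bp after it. The peaks of the arms did not overlap each other. The D209N peak lay within the Itga11 window printed above, the Flag peaks after it, and 2.71% of the D209N list was narrower than 148 bp. At day 3 the nearest peak edge lay 6.17 kb from a gene end in D209N and 27.3 kb in Flag.

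Itga10, a collagen receptor chain of cartilage, had a peak at its far end in all 4 lists. At its annotated start it had a peak of 227 bp in D209N and 259 bp in Flag at day 7, and none in either day 3 list. That start region overlaps the Itga10 window printed above, and it cannot be given to Itga10 alone. Itga1 and Itga2 lie 26.0 kb apart on chromosome 13, and both had a start peak in every list. The Itga1 start peak was 792 bp wide in D209N and 966 bp in Flag at day 7, and 471 bp in D209N and 637 bp in Flag at day 3.

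The laminin-binding alpha chains Itga3, Itga6 and Itga7 had gene-end peaks in all 4 lists. Itga6 (chromosome 2, 71786886 to 71858427) had 10 assigned peaks in D209N and 9 in Flag at day 7, and 4 in D209N and 6 in Flag at day 3. Both day 7 lists held more than both day 3 lists. For Itga6 the day difference was 3 peaks in D209N and 1 in Flag at equal list length, and 3 and 0 within 20 kb. Its regions at 55.9 and 41.7 kb outside the gene were listed at day 7 in both arms and at day 3 in neither. A region 96.2 kb away and one 15.1 kb inside the gene were absent from D209N at day 3 alone. Itga3, which pairs with Itgb1 in epithelial cells, had 2 peaks in both day 7 lists and 1 in both day 3 lists, and its start peak was 286 bp wide in D209N at day 3, against 849 bp in Flag. Itga7, the laminin receptor chain of muscle, had 3 peaks in D209N and 1 in Flag at day 7, and 1 in D209N and 2 in Flag at day 3.

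Among alpha chains that bind RGD motifs, Itga5, the fibronectin receptor chain, and Itga8, its relative in kidney mesenchyme, had start peaks in all lists. Itga5 had 4 assigned peaks in D209N and 3 in Flag at day 7, and 2 in each day 3 list. Itgav, which pairs with several beta chains, had no gene-end peak under the rule, but a peak covered its RefSeq promoter start in every list, in a merged region of 1504 bp centred 2.46 kb inside the outer annotated end. Its assigned peaks numbered 6 in D209N and 7 in Flag at day 7, and 4 in D209N and 5 in Flag at day 3. Itga2b, the platelet chain, had 3 peaks inside the gene in every list and none at either end. Of 5 megakaryocyte markers, 1 had a gene-end peak in D209N and 2 in Flag at day 7, and 0 in both day 3 lists. The part of such cells in the Itga2b peaks was not tested.

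Itga4 and Itga9, receptor chains for VCAM1 and tenascin, had a peak at the annotated start in all lists. Itga4 had 1 assigned peak in D209N and 3 in Flag at day 7, and 3 in both day 3 lists. The peaks of Flag at day 7 that D209N lacked lay 39.5 and 46.2 kb from the end, within Cerkl, a neighbouring gene, and the one at 46.2 kb was also in both day 3 lists. Itga9 had 1 peak in D209N and 3 in Flag at day 7, and 1 in both day 3 lists, and the additional Flag peaks were 247 and 170 bp wide. The RefSeq promoter of Itga9 lies inside the gene and had no peak in any list.

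Of the beta chains outside the leukocyte group, Itgb1, Itgb3, Itgb5 and Itgb8 had gene-end peaks in all lists and Itgb6 in none. Itgb1, the partner of most alpha chains (chromosome 8, 128685654 to 128733579), had 6 assigned peaks in D209N and 5 in Flag at day 7, and 6 in both day 3 lists. Its start peak was among the wider ones, at 1054 bp in D209N and 1074 bp in Flag at day 7, and 1041 bp in D209N and 1245 bp in Flag at day 3. Itgb5, a vitronectin receptor chain, had 8 peaks in both day 7 lists, and 4 in D209N and 3 in Flag at day 3. Regions at its start and 14.9 and 48.7 kb inside the gene were in all 4 lists, and at equal list length the day difference was 0 peaks in D209N and 3 in Flag. Its start peak measured 1102 bp in D209N and 1120 bp in Flag at day 7, and 1029 bp in D209N and 476 bp in Flag at day 3. Itgb6, an epithelial chain that activates TGF-beta, had 4 peaks in D209N and 3 in Flag at day 7, and 1 in both day 3 lists, none of them at an end. Itgb3 and Itgb8 moved by at most 1 peak between lists.

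Itgb4, which pairs with Itga6 in the hemidesmosomes of epithelia (chromosome 11, 115974725 to 116008412), had a gene-end peak in every list but D209N at day 3. It had 1 assigned peak in D209N and 4 in Flag at day 7, and 0 in D209N and 2 in Flag at day 3. Flag held more than D209N on both days, through intervals of 245, 244 and 59 bp at day 7. The peak at its lower-coordinate end was 676 bp wide in D209N and 449 bp in Flag at day 7, and 424 bp in Flag at day 3. The nearest peak edge in D209N at day 3 lay 3.06 kb from an end. Of 7 epithelial markers, 6 had a gene-end peak in both day 7 lists, and 3 in D209N and 4 in Flag at day 3, Cdh1 being the one in Flag alone, while 0 of 5 keratinocyte markers had one in any list. The part of epithelial cells in the Itgb4 peaks was not tested.

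The leukocyte chains Itgae, Itgal, Itgam, Itgax, Itgb2 and Itgb7 had no gene-end peak in any list. These chains serve the adhesion of T cells, granulocytes and macrophages, Itgb2 being the partner of Itgal, Itgam and Itgax. Itgae, Itgam and Itgax had no assigned peak at all, as did 25.4% of coding genes. Itgal had 1 peak in D209N at day 7, Itgb2 had 1 in D209N and 2 in Flag at day 7, and neither had any at day 3. Itgb7 had 1 peak, 8.61 kb inside the gene, in every list but D209N at day 3. Itgam and Itgax are neighbours, 11.0 kb apart on chromosome 7, so their empty state is that of 1 stretch. Of 10 leukocyte markers 3 had a gene-end peak in both day 7 lists, and 2 in D209N and 3 in Flag at day 3. These were Spi1, Cd68 and Coro1a, while Ptprc and Cd3e had none. Cd3e had 0 assigned peaks in every list, and Ptprc had 2 in both day 7 lists, and 3 in D209N and 2 in Flag at day 3. The part of such cells in the peaks of the leukocyte chains was not tested.

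Laminin alpha chains had gene-end peaks at 5 of 5 genes in both day 7 lists and in Flag at day 3, and at 3 of 5 in D209N at day 3. Lama5, the alpha chain of most epithelial basement membranes and of laminins on which pluripotent cells are grown (chromosome 2, 180176373 to 180225904), had 5 assigned peaks in D209N and 4 in Flag at day 7, and 1 in D209N and 3 in Flag at day 3. Its start peak was 639 bp wide in D209N and 753 bp in Flag at day 7, and 446 bp in Flag at day 3. A second region 1.91 kb outside the gene had the same pattern, so D209N at day 3 lacked both. In that list the 1 assigned peak lay in a region 9.27 kb outside the start. The peak edge nearest to either gene end, 4.43 kb away, belonged to a peak not assigned to Lama5. Lama2, the alpha chain of muscle laminin (chromosome 10, 26981285 to 27617191), had 2 peaks in both day 7 lists, and 1 in D209N and 3 in Flag at day 3. Of the 3 in Flag, those of 50 and 493 bp both overlapped 1 Flag peak of 1093 bp at day 7. The Lama2 start peak measured 323 bp in D209N and 373 bp in Flag at day 7, and 219 bp in Flag at day 3, where 6.35% of the list was narrower. All 3 spanned the RefSeq promoter start, which lies inside the annotated end, and so overlapped the Lama2 window printed above.

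Lama4, the alpha chain of vessel and mesenchymal laminins (chromosome 10, 38965515 to 39110188), had 7 peaks in D209N and 6 in Flag at day 7, and 6 in D209N and 9 in Flag at day 3. It was one of the genes of the set with fewer peaks in Flag at day 7 than at day 3. Lama1, the chain of the early embryo, had 5 in D209N and 6 in Flag at day 7 and 3 in both day 3 lists. Lama3, the chain of epidermal laminin, had 3 in D209N and 4 in Flag at day 7, and 4 in D209N and 3 in Flag at day 3.

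Lamb1, the beta chain of the most widespread laminins (chromosome 12, 31265146 to 31329644), differed most between the arms at day 7. It had 6 assigned peaks in D209N and 2 in Flag at day 7, and 6 in D209N and 7 in Flag at day 3. By these counts Flag at day 7 stood apart from the other 3 lists. Counted within 20 kb of a gene end, the difference between arms at day 7 was 1 peak, and at equal list length it was also 1. The difference between days in Flag was 0 within 20 kb and -1 at equal list length. Regions 62.8 and 58.9 kb outside the gene were in D209N at both days and in Flag at day 3, but not in Flag at day 7. Regions at 46.9 and 29.6 kb were in both day 3 lists and in neither day 7 list. Its start had a peak in D209N at day 7 alone, chr12:31264981-31265212, which covers most of the Lamb1 window printed above. It was 232 bp wide, and 10.0% of that list was narrower. The nearest peak edge lay 6.03 kb from a gene end in Flag at day 7, and 6.26 kb in D209N and 15.9 kb in Flag at day 3.

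Lamb2, a beta chain of muscle and kidney laminins, had a start peak in all lists, with 2 assigned peaks in D209N and 2 in Flag at day 7, and 2 in D209N and 1 in Flag at day 3. Lamb3, the beta chain of epidermal laminin, had no gene-end peak, but its RefSeq promoters had a peak in every list. Lamc1, the gamma chain of most laminins (chromosome 1, 153218922 to 153332786), had 9 assigned peaks in both day 7 lists, and 5 in D209N and 8 in Flag at day 3. Its gene-end peak was the widest of the set in each list, at 1846 bp in D209N and 1804 bp in Flag at day 7, and 1676 bp in D209N and 1603 bp in Flag at day 3. Lamc3, another gamma chain, had 2 peaks in D209N and 3 in Flag at day 7, and 1 in D209N and 0 in Flag at day 3. Its gene-end call at day 3 concerned the higher-coordinate end and rests on a 7 bp interval in D209N. In Flag a peak of 285 bp began 1052 bp from that end, just outside the window. At the lower-coordinate end Lamc3 had a peak in Flag at day 7 alone, 277 bp wide.

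**Figure D2:**
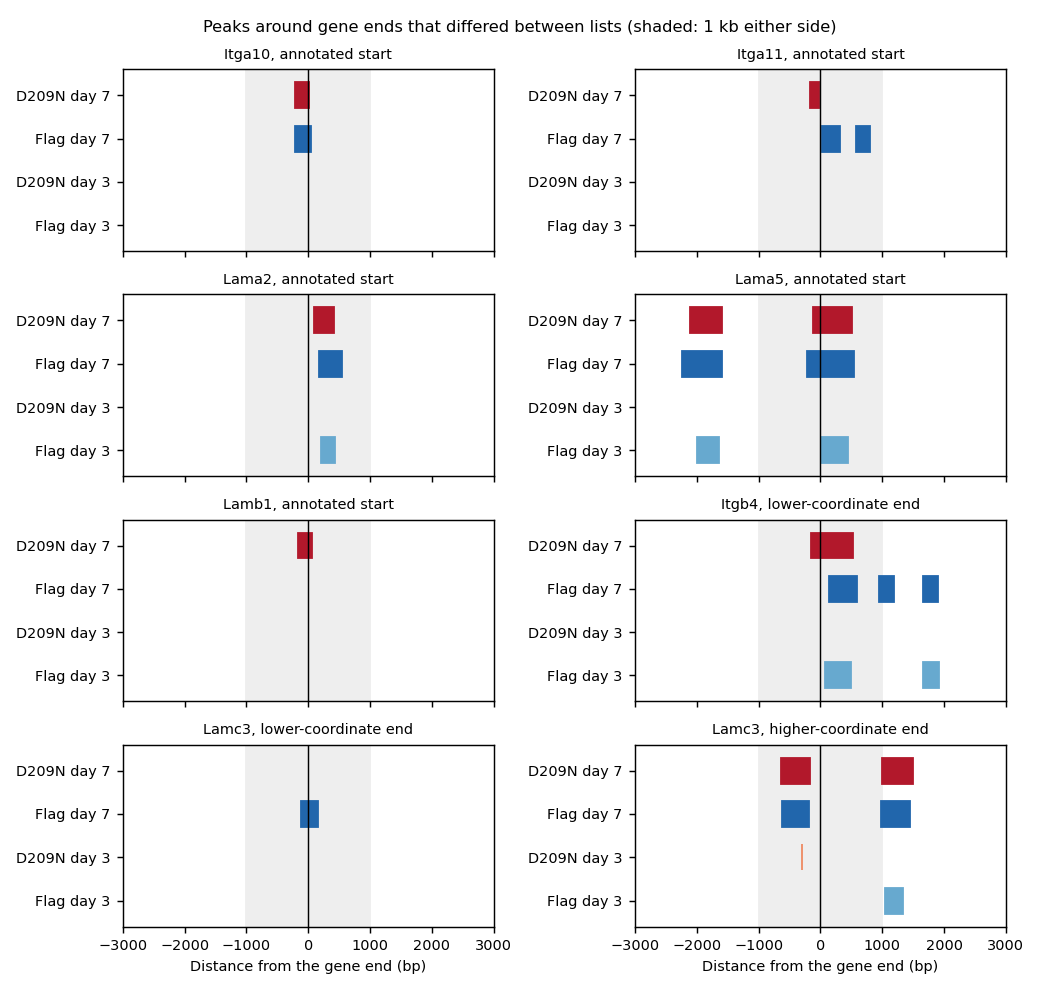
Peaks within 3 kb of gene ends that differed between lists, drawn to width against the distance from the gene end in bp, one row per list, with the 1 kb window shaded. D209N at day 3 has no peak near Lama2, Lama5 or Itgb4, Lamb1 has one in D209N at day 7 only, and Itga10 and Itga11 have start peaks at day 7 only.

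The comparison of D209N with Flag asks how the mutant RNase H1 changed chromatin on a given day. At day 7, 10 of the 35 genes had more assigned peaks in D209N (11.2% of coding genes) and 11 had fewer (17.8%), with 14 equal. The set holds longer genes with more peaks per gene, and 25.4% of coding genes had no assigned peak in any list. Here and below, the share of coding genes is therefore not a matched base for counts of genes with more or fewer peaks. The mean difference was -0.03 peaks per gene in the set and -0.09 over coding genes, and both medians were 0. A difference of at least 3 peaks was found at 1 gene in each direction, Lamb1 with more (0.343% of coding genes) and Itgb4 with fewer (0.9%). Gene-end peaks in D209N alone numbered 1, at Lamb1 (0.973%), and in Flag alone 0 (2.02%). Of the 24 genes with a gene-end peak in both lists, the widest was wider in D209N at 11 (49.8% of coding genes) and narrower at 12. With peaks wider than their list's median alone, the difference of Lamb1 was -1 and that of Itgb4 was 1, so both calls rest on narrower peaks.

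At day 3, 5 genes had more assigned peaks in D209N (6.38% of coding genes) and 10 had fewer (24.1%), with 20 equal. The mean difference was -0.371 peaks in the set and -0.274 over coding genes, in a D209N list that was shorter overall. With each list held to its widest 29189 peaks, 10 genes had more in D209N and 6 had fewer, the opposite balance, where coding genes had 12.6% in each direction. Differences of at least 3 peaks were found at 0 genes in favour of D209N (0.0411%) and at Lama4 and Lamc1 in favour of Flag, so 2 genes (2.18%). Both of these differences were -1 at equal list length, and -1 when counted within 20 kb. A gene-end peak stood in D209N alone at 1 gene, Lamc3 (0.809%), and in Flag alone at 3, Itgb4, Lama2 and Lama5 (5.03%). All 3 had it in both day 7 lists. Of 19 genes with one in both lists, it was wider in D209N at 4 (28.8%) and narrower at 15, with a median width ratio of 0.86 against 0.91 over coding genes.

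The comparison of days asks what opened or closed within an arm. In D209N 21 genes had more assigned peaks at day 7 (33.3% of coding genes) and 2 had fewer (7.21%), Itga4 and Lama3. With each list held to its widest 29189 peaks the counts were 8 with more and 9 with fewer (18.1% and 14.3% of coding genes). The mean difference was 1.11 peaks in the set and 0.495 over coding genes, and the medians were 1 and 0. At least 3 more peaks were found at 5 genes, Itga6, Itgb5, Itgb6, Lama5 and Lamc1 (5.96%), and at least 3 fewer at 0 (0.238%). At equal list length these differences were 3 at Itga6, 2 at Lama5, 1 at Itgb6 and 0 at Itgb5 and Lamc1. Gene-end peaks at day 7 alone numbered 5, at Itga11, Itgb4, Lama2, Lama5 and Lamb1 (9.02%), and at day 3 alone 0 (0.32%). Of the 20 genes with a gene-end peak on both days, it was wider at day 7 at 18 (89.2%).

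In Flag 21 genes had more assigned peaks at day 7 (29.0% of coding genes) and 6 had fewer (11.8%), Itga7, Itgb1, Itgb3, Lama2, Lama4 and Lamb1. At equal list length 11 had more and 6 had fewer (18.3% and 13.7% of coding genes). The mean difference was 0.771 peaks in the set and 0.314 over coding genes, and the medians were 1 and 0. At least 3 more were found at 5 genes, Itga6, Itga11, Itgb5, Lama1 and Lamc3 (4.47%), and at least 3 fewer at Lama4 and Lamb1, so 2 (0.923%). At equal list length the differences were 3 at Itgb5, 2 at Lamc3, 1 at Itga6 and Itga11, -1 at Lamb1 and -4 at Lama4. The sign turned for Lama1 at equal list length, to -2, and for Lamb1 with peaks wider than the median, to 1. Gene-end peaks at day 7 alone numbered 2, at Itga11 and Lamc3 (6.23%), and at day 3 alone 0 (0.704%). Of 22 genes with one on both days, it was wider at day 7 at 17 (78.5%). Counting a peak at either end, Itga11 is thus the one gene whose gene-end peak appeared in both arms. Its day 7 start peaks were narrow, with 2.71% of the D209N list narrower, and 24.2% and 12.8% of the Flag list. Itga10 also had a start peak at day 7 alone in both arms, beside a far-end peak in all 4 lists. At 4 genes, Itga7, Lama2, Lama3 and Lama4, the day difference had opposite signs in the arms (4.44% of coding genes), which was not tested. The Flag difference of Lama2 came from a site listed as 2 intervals at day 3 and 1 at day 7. Each day 3 and day 7 list enters one comparison of arms and one of days, so these counts share lists.

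**Figure D3:**
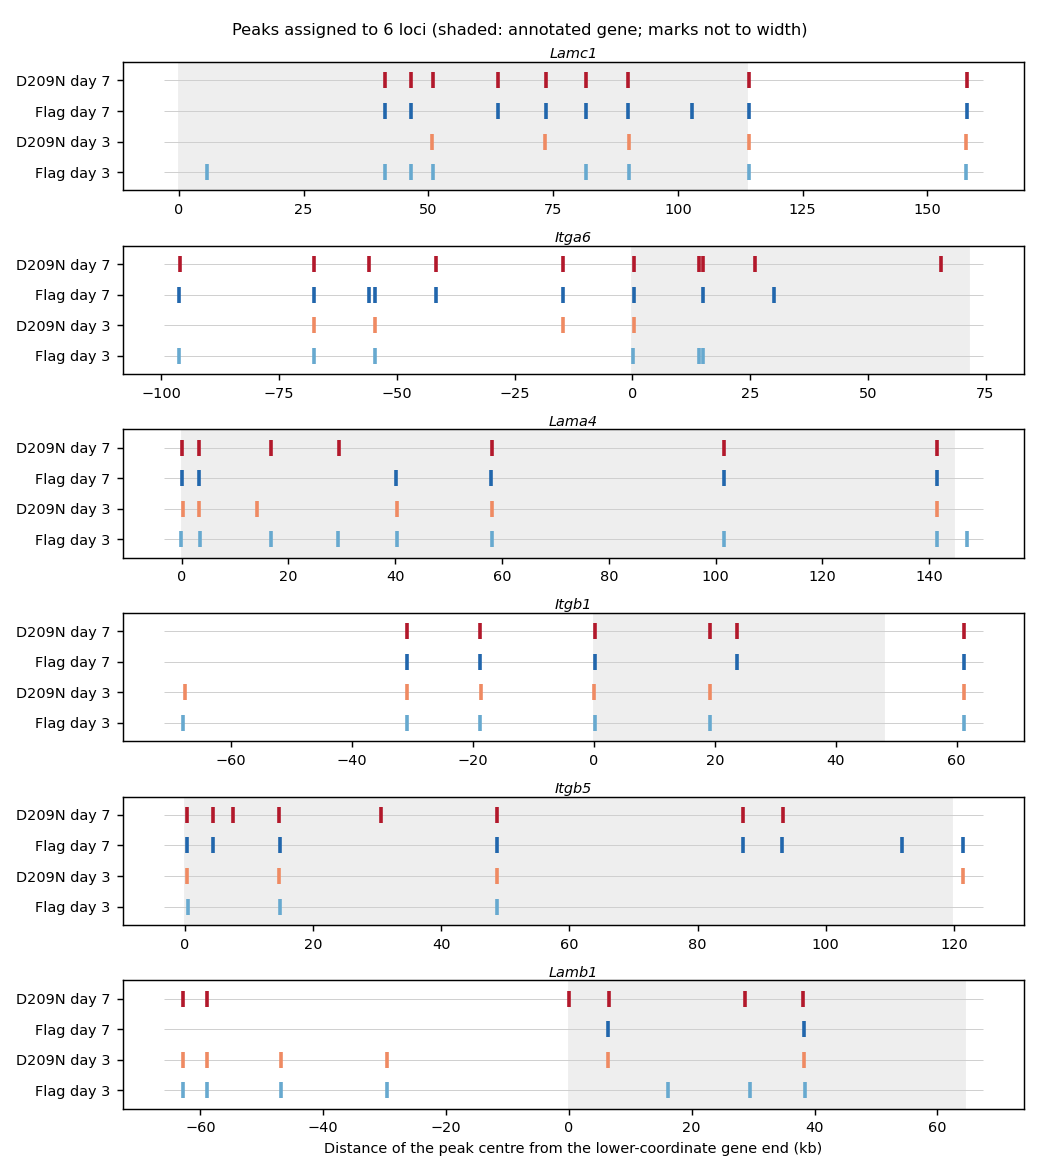
Positions of peak centres, in kb from the lower-coordinate end of the gene, for 6 loci and 4 lists, with the gene shaded. Lamb1 has no mark more than 1 kb outside the gene in Flag at day 7, where the other lists have 2 or 4. Itga6 and Itgb5 have more marks in both day 7 lists than in both day 3 lists.

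Width added a second view of the same peaks. Over the 19 genes with a gene-end peak in all 4 lists, the median width was 792 bp in D209N and 834 bp in Flag at day 7, and 546 bp in D209N and 637 bp in Flag at day 3. Over the 11080 coding genes with one in all lists, the medians were 879 bp in D209N and 876 bp in Flag at day 7, and 676.5 bp in D209N and 755.5 bp in Flag at day 3. In both sets D209N at day 3 had the narrowest median. Width depends on the peak caller and on depth, which no source used here gives.

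**Figure D4:**
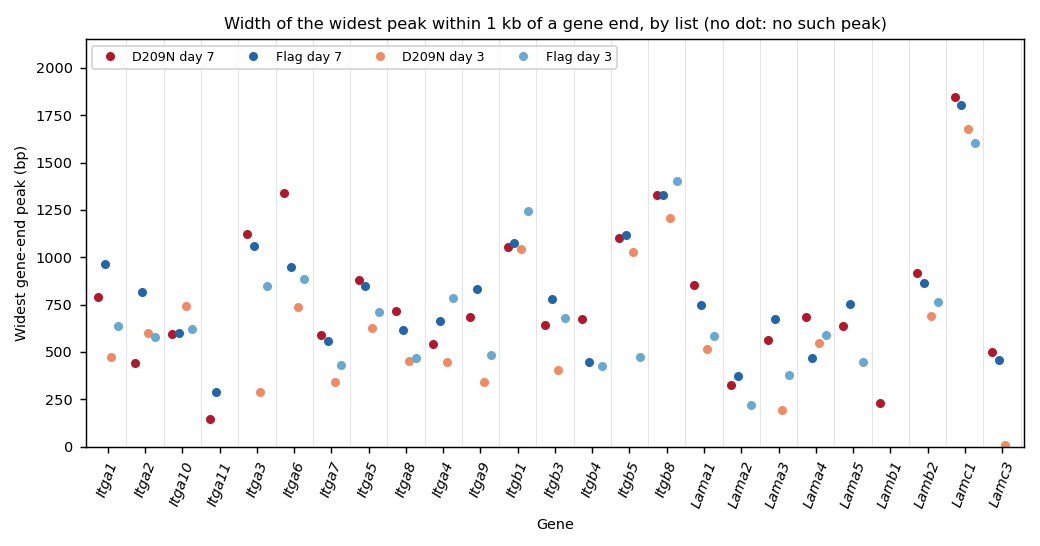
Width in bp of the widest gene-end peak of each gene (x axis, by role) in each list (dot colour). Lamc1 is the widest in every list, and the narrowest dots are the 7 bp interval at Lamc3 in D209N at day 3 and the 148 bp peak at Itga11 in D209N at day 7.

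Merging overlapping peaks of the 4 lists gave 55274 regions. The set held 153 of them, 109 of them touching the gene itself and 44 outside it. Regions in all 4 lists numbered 48, or 31.4% (24.6 to 39.1) against 39.4% of all regions. They were held by 26 of the 35 genes, and 19 of the 48 lay at a coding gene end. Regions in both day 7 lists and no day 3 list numbered 20, or 13.1% (8.62 to 19.3) against 12.9%. They lay at 15 genes, 13 of the 20 inside the gene and 1 at a gene end. Regions in both day 3 lists alone numbered 6, or 3.92% against 4.69%. Regions in 1 list only numbered 48, or 31.4% (24.6 to 39.1) against 26.3%, with 18 in D209N and 21 in Flag at day 7 and 2 in D209N and 7 in Flag at day 3. Of all 55274 regions, 3783 were in D209N alone and 5678 in Flag alone at day 7, and 1063 and 4011 at day 3. The regions of the set in 1 list had a median width of 251 bp, against 747.5 bp for its regions in all 4 lists. A merged region spans all its overlapping peaks, so regions held by more lists are wider in part by construction. Widths and positions were not tallied over all regions.

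**Figure D5:**
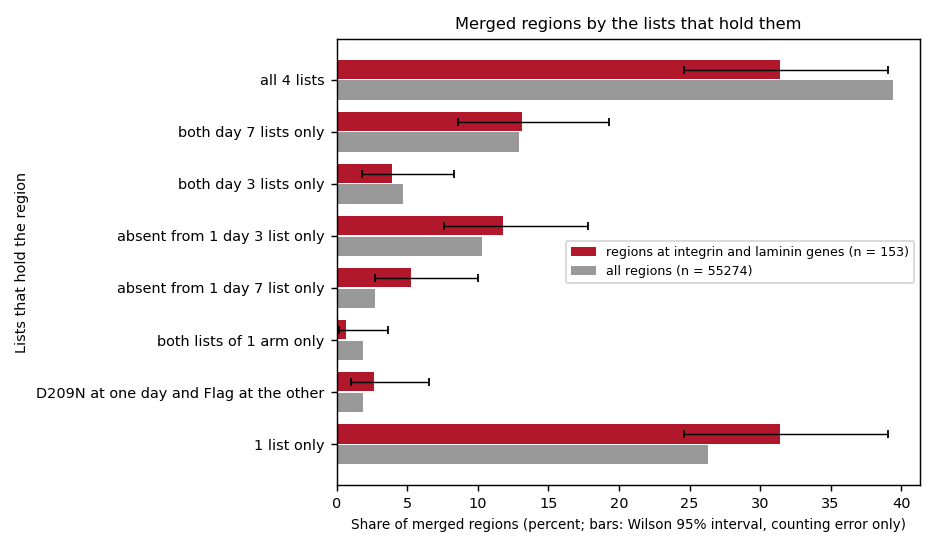
Share of merged regions, in percent, by the lists that hold them, for the 153 regions at integrin and laminin genes (red, with Wilson 95% intervals) and for all 55274 regions (grey). The set has 31.4% of its regions in all lists where all regions have 39.4%, and 13.1% against 12.9% in both day 7 lists only.

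Base composition was a feature that the choice of genes did not use. The 23 genes had 26 promoter windows in the RefSeq table. The 13 windows with a start peak in all lists had a median GC share of 61.2%, between 43.6% at Lamb2 and 68.0% at Itgb1. The 5 with one in some lists had a median of 62.0%, and the 8 with none 51.4%. Over all 32851 windows the medians were 61.2% with a peak in all lists, 56.4% in some and 46.4% in none. CpG observed over expected, the count of CG against that of C and G apart, had medians of 0.562 in all lists, 0.414 in some and 0.34 in none in the set. Over all windows these were 0.755, 0.458 and 0.189. Lama2, whose start peak was missing in D209N at day 3, had a ratio of 0 in its window, and Lama5, with the same pattern, had 72.4% GC and a ratio of 0.58.

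The 8 motifs were searched on either strand, and 1 window is 3.85% of the 26. GGGCGG was in 9 of 26 windows (34.6%) against 32.7% of all. GGAATG was in 3 (11.5%) against 12.6%, and GGGTGTG, another KLF motif, in 3 (11.5%) against 6.93%. TGANTCA, the AP-1 motif, was in 1 window, that of Itgax (3.85%), against 6.75%. CATTGTN, a SOX motif, was in 1, that of Itga8, against 10.7%, ATGCAAA, the start of the octamer bound by Oct4, in 1, of Itgb6, against 4.12%, and CCGGAAG, an ETS motif, in 1, of Itga3, against 6.91%. CACGTG, the E-box, was in 0 of 26 against 6.02%. A match in letters is no measured binding.

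Genes that work with integrins were set beside them. Of 24 adaptors and kinases at adhesion sites, 19 had a gene-end peak in D209N and 20 in Flag at day 7, and 15 in D209N and 16 in Flag at day 3. Over coding genes the shares were 60.4% in D209N and 61.5% in Flag at day 7, and 51.7% in D209N and 55.9% in Flag at day 3. Bcar1, Parvb and Src, signalling proteins of adhesion sites, had it at day 7 and not at day 3 in both arms. By arm, 4 of the 24 had it at day 7 alone in D209N and 4 in Flag, beside 9.02% and 6.23% of coding genes. Fermt1, an epithelial kindlin that activates integrins, had 6 assigned peaks in D209N and 5 in Flag at day 7, and 1 in D209N and 3 in Flag at day 3. It lacked its gene-end peak in D209N at day 3 alone, as Itgb4, Lama2 and Lama5 did. At day 3, 5.03% of coding genes had a gene-end peak in Flag and not in D209N. Fermt3, the kindlin of blood cells, had 0 peaks in every list. At day 7, 6 of the 24 had more assigned peaks in D209N and 8 had fewer (11.2% and 17.8% of coding genes). At day 3, in the shorter D209N list, 0 had more and 15 had fewer (6.38% and 24.1%), but at equal list length, a setting chosen after seeing the data for these lists, 3 had more and 6 fewer. Between days 15 had more and 1 fewer at day 7 in D209N (33.3% and 7.21% of coding genes), and 13 more and 2 fewer in Flag (29.0% and 11.8%). At equal list length 11 had more and 4 fewer in D209N (18.1% and 14.3%), and 11 more and 1 fewer in Flag (18.3% and 13.7%).

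Of 12 other matrix genes, among them the basement membrane genes Nid1, Hspg2 and Col4a1, 10 had a gene-end peak in D209N and 11 in Flag at day 7, and 10 in both day 3 lists. Col4a1, a chain of the collagen network of basement membranes, had 10 assigned peaks in D209N and 13 in Flag at day 7, and 5 in D209N and 4 in Flag at day 3. Fn1, fibronectin, had 3 in both day 7 lists, and 4 in D209N and 5 in Flag at day 3. For the 12 genes, 2 had more and 4 fewer peaks in D209N at day 7, and 1 had more and 8 fewer in the shorter D209N list of day 3, beside the same shares of coding genes. At equal list length 3 had more and 2 fewer at day 3. Of 8 other laminin receptors and anchors, 5 had a gene-end peak in D209N and 6 in Flag at day 7, and 5 in D209N and 4 in Flag at day 3. The gene-end counts of the 12 and of the 8 genes stand beside the shares of coding genes given for the adaptors. Plec, which links hemidesmosomes to keratin, had 10 assigned peaks in D209N and 12 in Flag at day 7, and 5 in D209N and 8 in Flag at day 3.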

How the data were processed

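The series holds 82 samples, and the 4 ATAC-seq peak lists were analysed here; the RNA-seq, R-loop and CLIP samples were not used here. Each list, as the authors deposited it, gives positions and a name for every peak and no other value. Tools named in the submitters' processing notes are Bowtie2 2.3.2 and CASAVA, with builds mm10 and GRCm38.p5. Not given in the sources used here are the peak caller, its threshold, any shift for transposase insertion and the handling of replicates; every peak name carries rep1. Lists were matched to groups by the arm and day in the peak names.

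Chromosomes 1 to 19, X and Y were used, leaving out 3 mitochondrial intervals per list. Genes came from RefSeq GRCm38.p6, whose gene table gives no strand; strand and start came from its promoter table. Counting used pandas 2.3.3 and numpy 2.4.6 (Python 3.11.15), Wilson intervals scipy 1.17.1 and figures matplotlib 3.10.9. Assignment was tested on simulated data. Ties went to the first symbol by alphabet. Lists were merged into regions at 1 bp of overlap. With 1 list per group no test between conditions was made. Values are set beside all coding genes, which were not matched to the set for length or number of peaks. The members and lists were chosen with earlier results of these data known. Named genes are those with a gene-end peak that differs between compared lists, a difference of at least 3 peaks, the 5 with most peaks and those with none, with the others given briefly by role.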

Additional observations from a re-analysis of the deposited data

Results flagged for a closer look

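At 4 genes the number of assigned peaks changed between days in opposite directions in the arms, as it did at 4.44% of all coding genes. With 1 list per group the difference was not tested. Lama4 had 1 more peak at day 7 in D209N and 3 fewer in Flag, a difference between the changes of 4 peaks. Itga7 had 2 more in D209N and 1 fewer in Flag, a difference of 3. Lama2 had 1 more in D209N and 1 fewer in Flag, a difference of 2. The Flag change came from intervals of 50 and 493 bp at day 3 that both overlapped 1 interval of 1093 bp at day 7. No merged region of Lama2 was thus lost in Flag. Lama3 had 1 fewer in D209N and 1 more in Flag, a difference of -2.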

How the results depend on the processing

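No paired analysis was possible because each group has 1 peak list and the 2 replicates of the labels cannot be separated, so leaving out a replicate was not possible either. Of 130 recomputed counts, 92 stayed within 1.5 times the reported one and the cause of the other moves was not tested. Assigned within 20 kb, peaks summed to 73 in D209N and 72 in Flag at day 7, and to 47 in D209N and 55 in Flag at day 3, regions in both day 7 lists alone numbered 8, and 0 genes had fewer peaks at day 7 in D209N. With peaks wider than their list's median, the sums were 41 in D209N and 49 in Flag at day 7, and 28 in D209N and 38 in Flag at day 3, and 12 genes had a gene-end peak in D209N at day 3. Then 3 genes had more peaks in D209N at day 7, 5 had fewer at day 7 than at day 3 in D209N, and in Flag 10 had more and 2 fewer. Gene-end peaks stood in D209N alone at 2 genes and in Flag alone at 1 at day 7, and in D209N alone at 0 at day 3. They appeared by day 7 at 10 genes and were lost at 1 in D209N, and appeared at 4 in Flag. Regions in all 4 lists numbered 18 and in both day 7 lists alone 8.

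With the widest 29189 peaks of each list, the day 7 sums were 68 in D209N and 69 in Flag. Then 10 genes had more and 6 fewer peaks in D209N at day 3, the opposite balance to that reported. Between days 8 had more and 9 fewer in D209N (18.1% and 14.3% of coding genes), and 11 had more and 6 fewer in Flag (18.3% and 13.7%). Over coding genes the arms were alike in this, and the difference between arms in the set was not tested. Gene-end peaks stood at day 7 in D209N alone at 0 genes and in Flag alone at 1, they appeared by day 7 in D209N at 2, and 3 regions were in both day 7 lists alone. Counting the RefSeq promoter start alone, which 23 genes have, 12 genes had a peak in D209N and 14 in Flag at day 3. With a 2 kb window 0 genes had a gene-end peak in D209N alone at day 3, and the promoter start rule also gave 0 but could not count Lamc3, which has no entry there.

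Among single genes with a difference of at least 3 peaks, 25 of 64 recomputed values stayed at 3 or more, 35 were smaller and 4 changed sign. With peaks wider than the median, Itgb4 had a difference of 1 and Lamb1 of -1 between the arms at day 7, and Lamb1 had 1 between days in Flag. At equal list length Lama1 had -2 between days in Flag.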
